A study of Mus musculus with 16 samples.

Results

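The 8 genes described here were Tbx21, Eomes, Prdm1, Id2, Zeb2, Irf4, Runx3 and Ifng. They were taken by name, 8 of 21938 protein-coding genes in GENCODE release M21 on GRCm38, and all 8 were found. Each was examined in 16 lists of ATAC-seq peaks, which mark chromatin that a transposase could cut. The lists came from mouse CD8+ OT-I T cells, whose receptor recognises an ovalbumin peptide. After activation with that peptide, cells were cultured in IL-2 to give effector T cells (TE) or in IL-15 to give memory T cells (TM). Both genotypes were cultured both ways, with 4 libraries in every one of the 4 groups. WT cells had the genotype TPdh+/+, and TPdh-/- cells had lost Pdha1, a subunit of the pyruvate dehydrogenase complex, through a Cre driven by the CD4 promoter, which is active in all developing T cells. Mice of both sexes were used. The sources do not say whether the 4 libraries of a group came from separate animals or cultures, so each p-value measures only the spread between these libraries. A peak list cannot show whether an exon of Pdha1 is missing, so the genotype was not checked.

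These genes are the transcription factors that drive CD8+ T cells toward killer cells, together with a main product of those cells. Tbx21 encodes T-bet and Eomes its relative eomesodermin, both T-box factors that bind and switch on Ifng, which encodes the cytokine interferon gamma. Prdm1 encodes Blimp-1, a repressor of memory genes in terminal effectors, and Zeb2 encodes a repressor that acts beside T-bet. Id2 binds E proteins and keeps them from DNA. Irf4 is induced by the strength of the T cell receptor signal, and Runx3 fixes CD8 identity and opens cytotoxic genes. Their loci are known to hold several enhancers each, and enhancers of Ifng lie on both sides of that gene.

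Each gene was searched with 50 kb on both sides. A start was held by a library when a peak reached within 1000 bp of an annotated transcription start of the gene, and every other peak of the locus was called distal. The strength of a peak was its fold enrichment, the summit pileup over the local background as the authors deposited it, and its −log10 q-value. A gene was called in a comparison when the 4 libraries of one group all lay above the 4 of the other. That arrangement has an exact p of 0.0286, the smallest possible with 4 against 4. None of these calls passed 0.05 after Benjamini-Hochberg adjustment over all genes or regions tested, so calls are read against the share of all genes called.

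The libraries differed widely. List length ran from 2290 to 86637 peaks, and the background coverage solved from the peaks ran from 0.173 to 1.55 fragments per base. Starts of 4.82% to 34.7% of all protein-coding genes were held, so a missing peak says little about a single gene. Of 9 T cell marker genes (Cd3e, Cd8a and the like), a mean of 16.7% to 38.9% of starts were held per group. The Cd8a start was held by no TPdh-/- TE and no WT TM library, and the Cd2 start by none of the 16. For 6 B cell genes the group means were 0% to 12.5%, for 6 myeloid genes 0% to 20.8% and for 6 genes of tissues outside blood 0% to 12.5%, while Cd4 and Zbtb7b of CD4 T cells reached 12.5% and both NK cell genes were at 0%. For 6 widely used genes such as Actb they were 33.3% to 45.8%.

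The site that recurred most in the 8 loci lay upstream of Ifng. It covered chr10:118418690-118419387 (GRCm38), its middle 22008 bp before the Ifng start, between protein-coding genes. It was held by 9 of 16 libraries, namely 3 TPdh-/- TM, 3 TPdh-/- TE, 2 WT TE and 1 WT TM, and all 9 peaks shared 150 bp. Of 525048 merged regions in the series, 0.332% were held by as many as 9 libraries. A well-known conserved enhancer of Ifng lies at about this distance, although the match was made by distance alone. Runx3 had a site at chr4:135080137-135080669, 40.2 kb upstream of its first start, and another at chr4:135098235-135099323, 21.9 kb upstream, both held by 5 libraries and both between protein-coding genes. At the first the 5 peaks shared 43 bp, and at the second there was no base common to all 5. Zeb2 had a site 32730 bp past its 3′ end, at chr2:44950470-44950902, held by 4 libraries, and one at one of its starts, at chr2:45111785-45112032, also held by 4.

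These 5 sites are shown because the results on recurring chromatin turn on them. Each sequence is 300 bases around the strongest summit, from RefSeq (GRCm38.p6), 5′ to 3′ on the strand of the gene. Capitals mark letters of 6 motifs, searched on both strands: AGGTGTGA for T-box factors, TGTGGT for RUNX, TGANTCA for AP-1, GAAANNGAA for IRF factors and Blimp-1, CAGGTG for the ZEB E-box and CCGGAAGT for ETS. The T-box and E-box letters overlap in part. The windows are chr10:118418959-118419258 (plus strand), chr4:135080393-135080692 (plus), chr4:135098455-135098754 (plus), chr2:44950623-44950922 (minus) and chr2:45111697-45111996 (minus). The last was chosen after its motif count was seen.
Ifng upstream site: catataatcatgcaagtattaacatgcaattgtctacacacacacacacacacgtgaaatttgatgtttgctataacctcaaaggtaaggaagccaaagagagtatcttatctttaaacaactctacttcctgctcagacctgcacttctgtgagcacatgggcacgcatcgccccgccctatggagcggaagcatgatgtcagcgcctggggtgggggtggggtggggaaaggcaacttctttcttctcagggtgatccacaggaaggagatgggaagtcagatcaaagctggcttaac
Runx3 far upstream site: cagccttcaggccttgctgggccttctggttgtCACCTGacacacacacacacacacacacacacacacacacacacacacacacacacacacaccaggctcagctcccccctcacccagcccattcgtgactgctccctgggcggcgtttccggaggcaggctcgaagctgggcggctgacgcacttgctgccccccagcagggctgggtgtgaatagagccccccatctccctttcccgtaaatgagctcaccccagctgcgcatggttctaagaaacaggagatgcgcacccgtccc
Runx3 near upstream site: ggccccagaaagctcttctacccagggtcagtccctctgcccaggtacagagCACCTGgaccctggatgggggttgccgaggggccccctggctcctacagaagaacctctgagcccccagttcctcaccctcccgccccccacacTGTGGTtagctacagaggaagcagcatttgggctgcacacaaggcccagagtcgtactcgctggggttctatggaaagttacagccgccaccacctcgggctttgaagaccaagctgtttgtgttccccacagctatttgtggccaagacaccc
Zeb2 downstream site: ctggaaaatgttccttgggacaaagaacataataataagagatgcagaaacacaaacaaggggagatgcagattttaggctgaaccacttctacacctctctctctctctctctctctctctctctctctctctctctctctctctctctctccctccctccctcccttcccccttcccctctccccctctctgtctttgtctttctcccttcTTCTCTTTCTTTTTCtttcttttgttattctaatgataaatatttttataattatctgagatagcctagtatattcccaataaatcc
Zeb2 start site: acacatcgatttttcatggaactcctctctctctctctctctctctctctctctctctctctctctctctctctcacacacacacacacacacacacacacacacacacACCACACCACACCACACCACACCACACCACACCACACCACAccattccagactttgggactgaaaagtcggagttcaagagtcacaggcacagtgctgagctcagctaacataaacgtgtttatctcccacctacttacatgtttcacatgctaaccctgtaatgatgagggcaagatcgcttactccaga

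The Ifng upstream window held none of these letters. Both Runx3 windows had an E-box, and the nearer one also had RUNX letters 3 bases before the summit. The Zeb2 downstream window had IRF letters in 2 overlapping places inside a CT-rich repeat, 60.7% of the window being repeat-masked. The Zeb2 start window had 8 RUNX matches in a row, each sharing a base with the next, in a tandem repeat of ACCAC, with 46.3% of the window masked. Over the 9 recurring regions of the 8 loci, RUNX letters were in 4 windows, E-box letters in 3, IRF letters in 1 and the T-box, AP-1 and ETS letters in 0. Of all 9244 regions held by at least 4 libraries, RUNX letters were in 18.1%, E-box letters in 16.5%, IRF letters in 7%, AP-1 letters in 5.93%, ETS letters in 5.25% and T-box letters in 1.03%. Over the 12 RefSeq promoter windows of the 8 genes, the 250 bases before each start, E-box letters were in 4, AP-1 letters in 2, RUNX and IRF letters in 1 each and T-box and ETS letters in 0. Of 32851 promoters, E-box letters were in 17.2%, RUNX letters in 14%, IRF letters in 7.13%, AP-1 letters in 6.75%, ETS letters in 2.88% and T-box letters in 1.12%. A match says only that these letters stand in the window.

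The peaks at the Ifng upstream site were of moderate strength in every group. Fold enrichment was 5.88 and 6.11 in WT TE replicates 1 and 2, and 4.93, 3.89 and 7.08 in TPdh-/- TE replicates 1, 3 and 4. It was 6.64 in WT TM replicate 1, and 3.28, 5.53 and 5.89 in TPdh-/- TM replicates 1, 3 and 4. Summit pileups were 15 and 9 fragments in the WT TE peaks, 8 in the WT TM peak, 4 to 10 in TPdh-/- TE and 3 to 7 in TPdh-/- TM. The pileups of the TPdh-/- TM peaks thus lay below those of both WT groups, while background coverage was also lower in TPdh-/- TM, and its part in this was not tested. TPdh-/- TM and WT TM differed by 3 against 1 library (Fisher's exact test, two-sided, p = 0.486), and TPdh-/- TE and WT TE by 3 against 2 (Fisher's exact test, p = 1). A further Ifng region, 29.8 kb downstream of the start, was held by 1 library of each group, but its 4 peaks had no base in common. One more, 53.5 kb downstream and named after its values were seen, was held by 3 TPdh-/- TE libraries and no other, with fold enrichments of 6.34, 3.86 and 6.23, but its 3 peaks had no base in common either.

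The far upstream site of Runx3 gave the strongest peak of all 8 loci. Its fold enrichment was 10.3 in TPdh-/- TM replicate 3 and 3.96 in TPdh-/- TM replicate 2, 7.14 and 5.87 in WT TM replicates 1 and 4, and 7.18 in WT TE replicate 2. No TPdh-/- TE library held it. The nearer Runx3 site was weaker, at 3.75 to 6.79, and was held by TPdh-/- TE replicates 3 and 4, WT TM replicate 1 and TPdh-/- TM replicates 3 and 4. The Zeb2 downstream site, at 3.82 to 8.15, was held by TPdh-/- TE replicates 1 and 4, WT TM replicate 3 and TPdh-/- TM replicate 1. Both were thus seen in every group but WT TE. The Eomes locus had its only region held by 4 or more libraries at the start of the neighbouring gene Golga4, 27.4 kb downstream, in 5 libraries. Among the 9 recurring regions of the 8 loci, 0 separated any pair of groups, against 1.18% of all recurring regions for TPdh-/- TM and WT TM, 0.876% for TPdh-/- TE and WT TE, 0.876% for WT TM and WT TE, and 1.11% for TPdh-/- TM and TPdh-/- TE (Fisher's exact test, unadjusted). Most regions were seen once: 285 of 338 regions in the 8 loci (84.3%) were held by 1 library, beside 86.9% in the series. The Tbx21, Prdm1 and Id2 loci had no region held by 4 libraries.

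**Figure D1:**
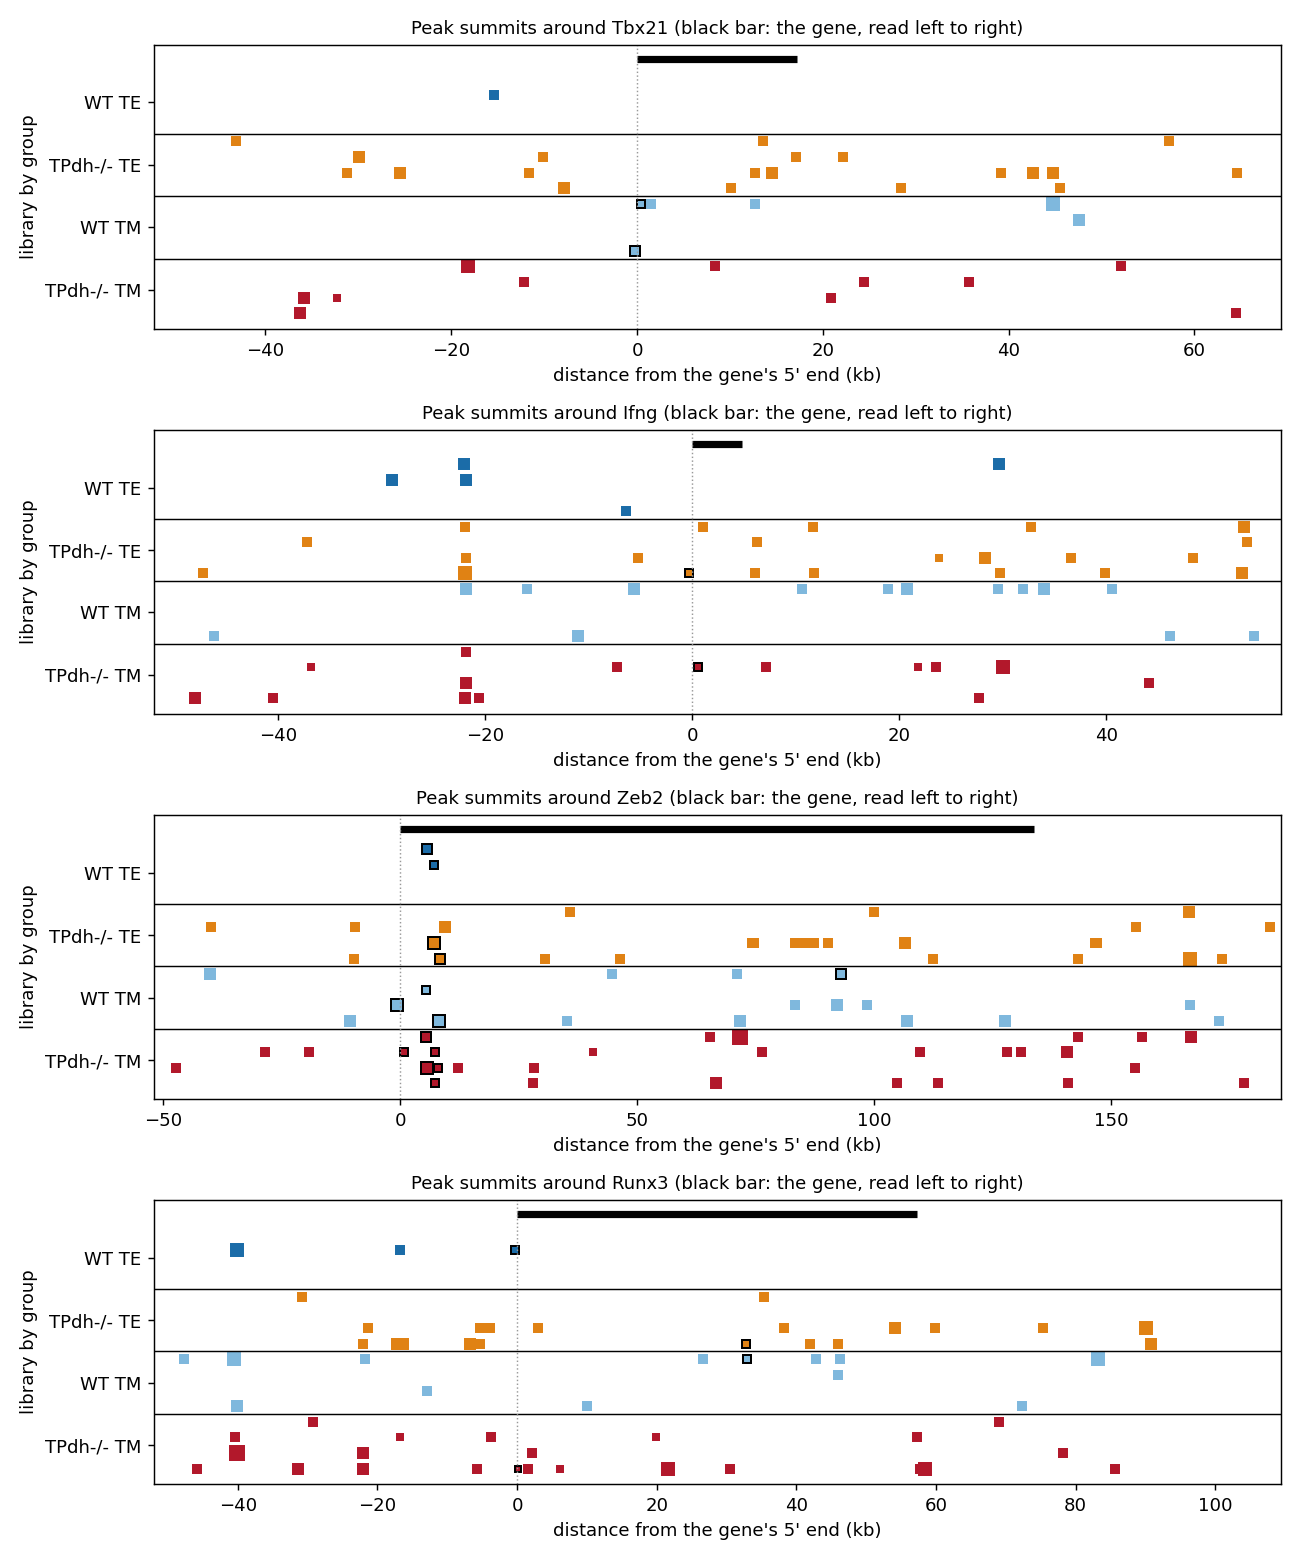
Peak summits around Tbx21, Ifng, Zeb2 and Runx3. The x axis is the distance from the 5′ end of the gene in kb, each row is a library ordered by group and replicate, marker size grows with fold enrichment, and a black outline marks a peak at an annotated start. The column of 9 marks 22008 bp upstream of Ifng is the site shared by most libraries, while the Tbx21 map has no such column.

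Gene starts were next examined, and most of the 8 were rarely held. Tbx21 (ENSMUSG00000001444.2, chr11:97098071-97115331, minus strand) had a start peak only in WT TM replicates 1 and 4, with fold enrichments of 3.37 and 5.09. Eomes (ENSMUSG00000032446.14, chr9:118478212-118486132, plus strand) had one in 4 libraries, at 4.41 and 5.32 in WT TE replicates 1 and 2, 3.93 in TPdh-/- TE replicate 4 and 3.71 in TPdh-/- TM replicate 2. Ifng (ENSMUSG00000055170.4, chr10:118441046-118445892, plus strand) had one in TPdh-/- TE replicate 4 (4.55) and TPdh-/- TM replicate 2 (4.76). Thus the start of Ifng was held less often than its upstream site, in 2 against 9 libraries, a difference that was not tested.

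Zeb2 (ENSMUSG00000026872.17, chr2:44983632-45117395, minus strand) was the exception. Its start was held by 12 libraries, all 4 WT TM (fold enrichment 5.90, 4.89, 7.0 and 7.04), all 4 TPdh-/- TM (6.34, 4.76, 7.05 and 4.53), WT TE replicates 1 and 2 (6.44 and 4.67) and TPdh-/- TE replicates 3 and 4 (6.86 and 5.11). In both genotypes this was 4 TM against 2 TE libraries (Fisher's exact test, p = 0.429 for both). With a window of 500 bp the Zeb2 start was held by 1 WT TM, 3 TPdh-/- TM, 1 WT TE and 1 TPdh-/- TE library. The Zeb2 pattern therefore depends on the window. Zeb2 has 29 annotated starts over 94.5 kb, whose windows cover 12.2 kb, beside 2.00 kb for Tbx21 or Ifng. The antisense RNA gene Zeb2os starts among them, and its openness and that of Zeb2 cannot be told apart here. Peaks of different libraries used different starts, and the most shared of these regions, chr2:45109322-45110445, was held by 5 libraries. These were 3 of TPdh-/- TM, 0 of WT TM and 1 of each TE group (TPdh-/- TM against WT TM, Fisher's exact test, p = 0.143), with no base common to all 5 peaks.

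The remaining starts gave mixed patterns. Prdm1 (ENSMUSG00000038151.13, chr10:44437177-44528501, minus strand) was held by 6 libraries, with 6.63 in WT TE replicate 1, 4.91 and 8.19 in TPdh-/- TE replicates 3 and 4, 5.34 in WT TM replicate 4, and 7.21 and 6.96 in TPdh-/- TM replicates 3 and 4. Id2 (ENSMUSG00000020644.9, chr12:25093799-25097140, minus strand) was held by WT TE replicate 2 (6.38) and TPdh-/- TM replicate 1 (6.88). Runx3 (ENSMUSG00000070691.10, chr4:135120652-135177990, plus strand) was held by 1 library of each group, at 3.07 in TPdh-/- TM, 4.43 in WT TM, 4.49 in TPdh-/- TE and 4.90 in WT TE. Its group values cannot be ordered from 1 library each.

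Irf4 (ENSMUSG00000021356.10, chr13:30749226-30766976, plus strand) had a start held in WT libraries alone, as did Tbx21, but in both cell types. Fold enrichment was 4.21 and 3.92 in WT TE replicates 1 and 2 and 3.63 and 3.37 in WT TM replicates 1 and 4, and none of the 8 TPdh-/- libraries had a peak within 1000 bp. With a window of 2000 bp the start was also held by 2 TPdh-/- TE libraries, so the pattern depends on the window. In each cell type the difference was 2 against 0 libraries (Fisher's exact test, p = 0.429). The 4 peaks shared 14 bp at the start and were weak, with a median fold enrichment of 3.77 over the 5 Irf4 start peaks. Over all protein-coding genes TPdh-/- TM held more starts than WT TM, 29.4% against 15.8%, and TPdh-/- TE and WT TE held 19.5% and 18.8%.

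**Figure D2:**
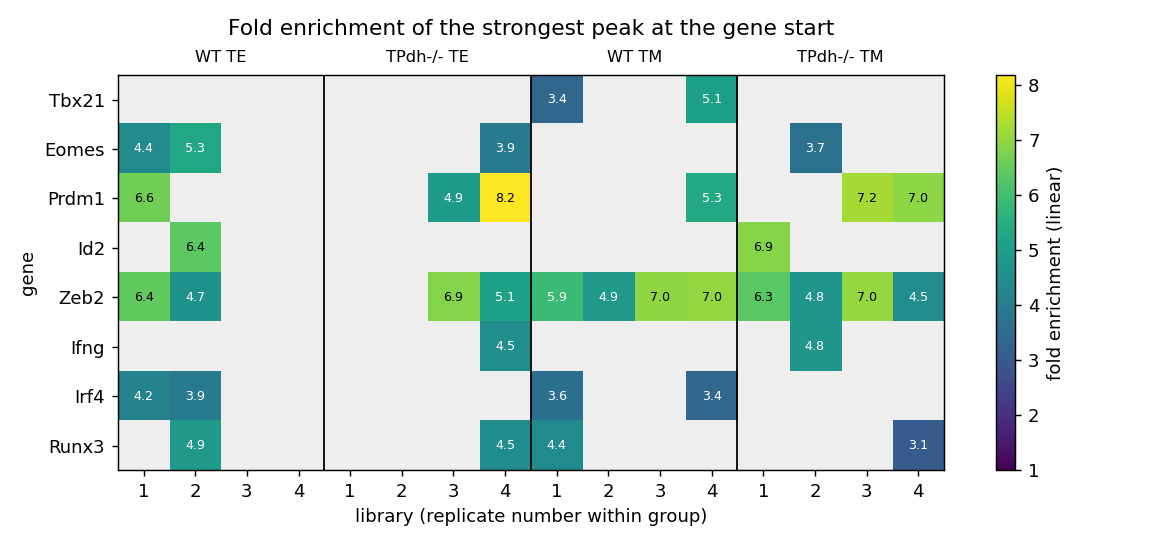
Fold enrichment of the strongest peak within 1000 bp of a start of each gene (rows) in each library (columns, by group). Grey cells had no peak. Zeb2 fills 12 of 16 cells, and the Irf4 and Tbx21 rows are filled only in WT columns.

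Of the 8 starts, 0 were called in any comparison by Fisher's exact test, where a call is an unadjusted p under 0.05. The shares of all protein-coding genes called were 0.606% for TPdh-/- TM against WT TM, 0.283% for TPdh-/- TE against WT TE, 0.273% for WT TM against WT TE and 0.47% for TPdh-/- TM against TPdh-/- TE. Starts of the 8 genes were held at a mean of 31.3% in both TM groups, 28.1% in WT TE and 21.9% in TPdh-/- TE. When each list was cut to its strongest 2290 peaks by q-value, Prdm1 and Zeb2 starts were held by 2 libraries each, Id2 by 1 and the other 5 by none. The 5 neighbouring genes looked up were held at least as often as the member beside them, counted over all their annotated starts. Some of these starts lay outside the loci. Kpnb1 was held by 3 WT TE libraries, while only 1 WT TE library had a peak in the Tbx21 locus. Kpnb1, an importin next to Tbx21, was held by 8 libraries, and Golga4, a Golgi protein gene next to Eomes, also by 8. Tbkbp1 and Osbpl7 near Tbx21 and Kidins220 near Id2 were held by 2 to 3. These starts were looked up after the members' values were seen.

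Distal peaks were far more numerous than start peaks. The 8 loci held 424 peaks, of which 383 were distal. By position, 252 lay between protein-coding genes, 88 in introns and 11 in exons of the gene itself, 21 inside another protein-coding gene and 11 at the start of one. Distal peaks were weaker, with a median fold enrichment of 4.18 beside 4.89 at starts, a median −log10 q-value of 2.57 beside 3.32, a pileup of 5 beside 7 fragments and a width of 199 beside 311 bp, given as a description with no test.

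The number of distal peaks followed the length of the list. Summed over the 8 loci it was 0 to 11 in WT TE and 22 to 52 in TPdh-/- TE, and 7 to 37 and 30 to 43 in the TM groups of the same genotypes. List length, in the same order, was 2290 to 19234, 32906 to 78635, 13304 to 54892 and 60189 to 86637 peaks. Background coverage ran the other way, at 0.636 to 1.55, 0.173 to 0.445, 0.354 to 0.572 and 0.186 to 0.261 fragments per base. Genotype, list length and coverage therefore cannot be told apart in a comparison of raw numbers. Per 10000 peaks of the list, the 8 loci held 4.47 ± 3.22, 6.92 ± 0.321, 5.75 ± 1.27 and 5.27 ± 0.813 distal peaks (SD, n = 4), again in that order.

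**Figure D3:**
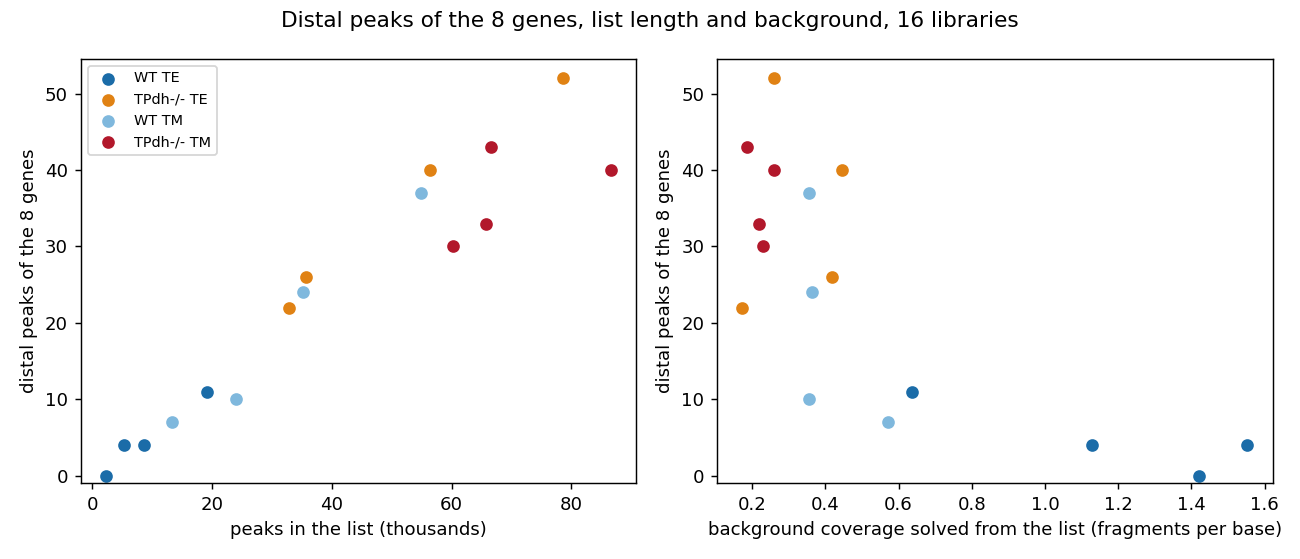
Distal peaks of the 8 genes in each of 16 libraries against the number of peaks in the list (left) and against background coverage (right, fragments per base), coloured by group. WT TE libraries lie at the lower left of the first panel with 0 to 11 distal peaks.

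The question of whether pyruvate dehydrogenase loss altered these loci in effector cells was asked by comparing TPdh-/- TE with WT TE. By number of distal peaks 5 of 8 genes were called, all higher in TPdh-/- TE, while 22.1% of all protein-coding genes were called higher (exact permutation test, two-sided). Tbx21 had 3, 4, 9 and 4 distal peaks in TPdh-/- TE replicates 1 to 4 and 0, 1, 0 and 0 in WT TE. Zeb2 had 3, 5, 9 and 7 against 0 in every WT TE library. Irf4 had 4, 4, 6 and 4 against 0, 2, 0 and 0. In these 3 genes each TPdh-/- TE library lay above each WT TE library.

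Ifng had 5, 3, 6 and 7 distal peaks against 2, 2, 0 and 1, and Id2 had 3, 2, 2 and 2 against 1, 0, 0 and 0. Both were called, with the nearest libraries of the groups 1 peak apart. The differences in mean were 6 for Zeb2, 4.75 for Tbx21, 4.00 for Irf4 and Ifng and 2.00 for Id2 (exact permutation p = 0.0286, adjusted 0.129 for each, n = 4 against 4). Runx3 had 2, 0, 9 and 8 against 0, 2, 0 and 0, Prdm1 5, 2, 7 and 5 against 1, 3, 0 and 2, and Eomes 1, 2, 4 and 3 against 0, 1, 0 and 1. The groups of these 3 genes overlapped (exact permutation p = 0.257, 0.0857 and 0.0857). The median difference was 4.00 peaks over the 8 genes and 2.00 over all genes, and 0.37 and 0.035 per 10000 peaks. On that scale the differences of Prdm1 and Eomes were below 0, at -0.68 and -0.12, neither of them called. Without WT TE replicate 4 they were above 0, at 0.041 and 0.31.

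Per 10000 peaks, 2 of the 8 were still called, both higher in TPdh-/- TE, beside 10.2% of all genes called higher. Zeb2 stood at 0.840, 1.52, 1.14 and 1.24 against 0 in each WT TE library. Tbx21 stood at 0.840, 1.22, 1.14 and 0.709 against 0, 0.520, 0 and 0. The difference was 1.19 for Zeb2 and 0.85 for Tbx21 (exact permutation p = 0.0286). The shortest WT TE list had 2290 peaks, so a 0 there shows little. For Ifng the difference was -0.23 per 10000 peaks and -0.25 peaks in equal-sized lists, but without WT TE replicate 1 it was 0.10 and 0.25, so the scaled values gave Ifng no direction. In equal-sized lists 0 of 8 genes were called, as against 1.23% of all genes. There the 8 loci kept 0 to 3 distal peaks per library, and no member had one in all 4 libraries of a group. None of the 8 could thus be called in equal-sized lists in any comparison, and these counts of 0 decide nothing. By number of distal peaks, genes called higher in the marker lists were 0 of 9 for T cells, 0 of 2 for NK cells, 0 of 2 for CD4 T cells, 1 of 6 for B cells, 2 of 6 for myeloid cells, 3 of 6 for tissues outside blood and 1 of 6 widely used genes. Per 10000 peaks, 2 of 2 for CD4 T cells, 1 of 9 for T cells and 1 of 6 widely used genes were called lower. On that scale 1 of 6 for myeloid cells and 1 of 6 for tissues outside blood were called higher. Of all 21938 genes, 1421 were called lower and 2246 higher.

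The same question in memory cells was addressed by comparing TPdh-/- TM with WT TM. By number of distal peaks 2 of 8 genes were called, both higher in TPdh-/- TM, and 9.21% of all protein-coding genes were called higher. Prdm1 had 5, 6, 5 and 11 distal peaks in TPdh-/- TM and 3, 3, 1 and 3 in WT TM. Irf4 had 3, 5, 4 and 4 against 2, 0, 0 and 0. The differences in mean were 4.25 and 3.50 (exact permutation p = 0.0286, adjusted 0.310 for both). No other member separated the groups.

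Tbx21 had 3, 3, 3 and 2 distal peaks in TPdh-/- TM and 3, 1, 0 and 0 in WT TM (exact permutation p = 0.143). Zeb2 had 5, 8, 4 and 6 against 3, 0, 4 and 6 (exact permutation p = 0.229). Ifng had 1, 6, 2 and 5 against 10, 0, 0 and 4, equal in mean at 3.50 with SDs of 2.38 and 4.73. For Eomes, Id2 and Runx3 the differences were 1.0, 1.5 and 2.5 (exact permutation p = 0.686, 0.543 and 0.40). The median difference was 2.13 over the 8 genes and 1.75 over all genes, but -0.07 and 0.0048 per 10000 peaks. On that scale 5 of the 8 differences were below 0, at -0.50 for Zeb2, -0.36 for Eomes, -0.26 for Ifng, -0.11 for Id2 and -0.025 for Runx3, none of them called. Without WT TM replicate 1 the difference was 0.10 for Ifng and 0.13 for Runx3. It was 0.081 for Id2 without WT TM replicate 2 and 0.062 for Zeb2 without WT TM replicate 3. Of the 5, only Eomes stayed below 0 with any 1 library left out. Per 10000 peaks, Irf4 was still called, at 0.457, 0.577, 0.665 and 0.601 against 0.364, 0, 0 and 0 (difference 0.48, exact permutation p = 0.0286), while Prdm1 was not, and its difference was -0.09 without TPdh-/- TM replicate 4. On that scale 2.06% of all genes were called higher. In equal-sized lists 0 of 8 were called, where none could be, beside 0.0866% of all genes.

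**Figure D4:**
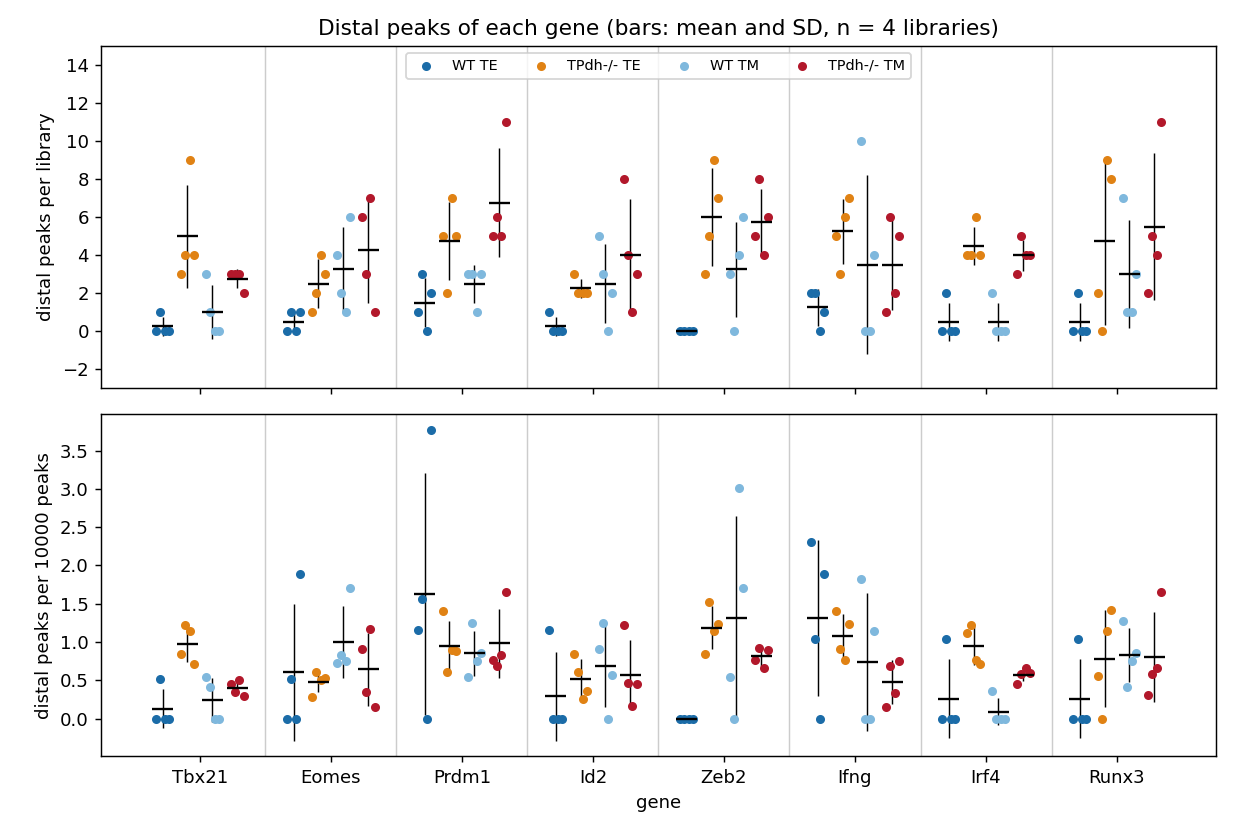
Distal peaks of each gene per library (top) and per 10000 peaks of the list (bottom), 4 points a group with the mean and SD in black. In TE the TPdh-/- points of Tbx21 and Zeb2 lie above the WT points in both panels, and those of Ifng only in the upper one.

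Memory cells were then compared with effector cells within each genotype. In WT, 0 of 8 genes were called by number of distal peaks (exact permutation test), as against 5.57% of all genes in either direction. Zeb2 had 3, 0, 4 and 6 in WT TM against 0 in every WT TE library (exact permutation p = 0.143), and Eomes had 4, 2, 1 and 6 against 0, 1, 0 and 1 (exact permutation p = 0.0857). Irf4 had the same mean in both, 0.50. Per 10000 peaks and in equal-sized lists 0 of 8 were called as well (exact permutation test), as against 9.99% and 1.28% of all genes. In equal-sized lists none of the 8 could be called.

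In TPdh-/-, 0 of 8 genes were called by number (exact permutation test), as against 2.07% of all genes. Tbx21 had 3, 3, 3 and 2 distal peaks in TM and 3, 4, 9 and 4 in TE, with a difference of -2.25 (exact permutation p = 0.114). Per 10000 peaks 3 of 8 were called, all lower in TPdh-/- TM, beside 2.06% of all genes called lower. Ifng stood at 0.152, 0.693, 0.332 and 0.751 in TM and 1.40, 0.912, 0.763 and 1.24 in TE. Tbx21 stood at 0.457, 0.346, 0.498 and 0.300 against 0.840, 1.22, 1.14 and 0.709. Irf4 stood at 0.457, 0.577, 0.665 and 0.601 against 1.12, 1.22, 0.763 and 0.709. The differences were -0.60, -0.58 and -0.38 (exact permutation p = 0.0286 for each). In equal-sized lists 0 of 8 were called (exact permutation test), where none could be, beside 0.137% of all genes.

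Strength was tested where all 8 libraries of a comparison had a distal peak of the gene. This held for 3 members in TPdh-/- TM against WT TM, for none in both comparisons with WT TE and for 7 in TPdh-/- TM against TPdh-/- TE. Of the 3, 0 were called (3.44% of all genes tested; exact permutation test). Irf4 was the 1 member of 7 called, with a mean log2 fold enrichment of its strongest distal peak of 2.26 ± 0.20 in TPdh-/- TM and 2.79 ± 0.25 in TPdh-/- TE (SD, n = 4; difference -0.53, exact permutation p = 0.0286, adjusted 0.963), while 0.782% of all genes tested were called lower. It was not called by −log10 q-value or by pileup over background coverage.

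Whether the effect of genotype differed between TM and TE was examined by permuting cell type within genotype over 4900 arrangements, a test added after the values were seen. The p-values of this test assume no difference between TM and TE in either genotype, so a low p need not mean unlike genotype effects. By number of distal peaks 0 of 8 genes passed an unadjusted p of 0.05, and 1.69% of all genes did. Tbx21 was nearest, with a genotype difference of 1.75 peaks among TM and 4.75 among TE libraries (exact permutation p = 0.0673). It passed with 1 library left out in 4 cases, namely TPdh-/- TE replicate 1 (exact permutation p = 0.0102), WT TE replicate 2 (0.0245) and WT TM replicate 3 or 4 (0.0265 for both). Zeb2 passed without TPdh-/- TE replicate 1 (exact permutation p = 0.0388) or WT TM replicate 2 (0.0494). Per 10000 peaks 2 of 8 passed, beside 13.2% of all genes. For Zeb2 the genotype difference was -0.50 among TM and 1.19 among TE libraries (exact permutation p = 0.00612, adjusted 0.276), and for Tbx21 it was 0.16 and 0.85 (exact permutation p = 0.0245, adjusted 0.322). The Zeb2 values in WT TM were 0.547, 0, 3.01 and 1.71 per 10000 peaks. Without replicate 3, the highest, the TM difference was 0.06 and the difference between cell types -1.12 (exact permutation p = 0.00612, unadjusted). For Tbx21 the p was 0.0571 without WT TM replicate 1 and 0.0531 without WT TM replicate 2 (exact permutation tests), and Irf4 passed without WT TE replicate 2 (exact permutation p = 0.0204).

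Genes around the 8 in the same pathway were counted in 5 lists. Among 13 receptors and signalling factors upstream (such as Il12rb2, Stat4 and Notch2), 1 start was called higher in TPdh-/- TM than in WT TM. This was Stat5b, which carries IL-2 and IL-15 signals, held by 4 of 4 TPdh-/- TM and 0 of 4 WT TM libraries (Fisher's exact test, p = 0.0286), beside 0.606% of all starts called. In equal-sized lists 0 of the 13 starts were called (Fisher's exact test, unadjusted). It was also held by 0 of 4 TPdh-/- TE libraries. By number of distal peaks, 2 of the 13 were called in TPdh-/- TE against WT TE, namely Notch2 and Il12rb2, the receptor subunit through which IL-12 induces Tbx21 and Ifng, with 4, 4, 8 and 8 against 2, 1, 0 and 1.

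Of 8 partner factors, Batf and Runx1 were called by distal number in TPdh-/- TE against WT TE, and 0 in TPdh-/- TM against WT TM. Of 8 factors of memory cells, Lef1, Bcl6 and Zeb1 were called in TE and 0 in TM. Zeb1, the relative of Zeb2 that memory cells use, had 4, 4, 7 and 6 distal peaks in TPdh-/- TE and 0, 1, 0 and 0 in WT TE. Of 10 effector targets, Klrg1, Cx3cr1 and Ccl5 were called in TE and Tnf in TM, where it had 5, 4, 6 and 6 against 2, 3, 0 and 0. Both receptor chains of interferon gamma were uncalled by distal number. All these calls by distal number were higher in TPdh-/-, and the shares are to be read against 22.1% of all genes in TE and 9.21% in TM. Per 10000 peaks most were lost. In TPdh-/- TM against WT TM 0 genes of the 5 lists were called (exact permutation test, unadjusted). In TPdh-/- TE against WT TE, Zeb1 was still higher, with a difference of 0.94, while Il2ra, Fasl and Ifngr2 were called lower, with differences of -2.53, -1.69 and -2.28 (exact permutation p = 0.0286 for each), where 16.7% of all genes were called in either direction. Ifngr2, a chain of the interferon gamma receptor, stood at 0.56, 0.608, 0.636 and 0.354 against 3.47, 1.56, 4.37 and 1.89. In WT TM against WT TE the lists gave Notch2, Batf and Klrg1 by distal number, all higher in TM, and in TPdh-/- TM against TPdh-/- TE none by distal number (exact permutation test). Per 10000 peaks these 3 were lost, Foxo1 was called higher in WT TM, and Il2ra, Fasl, S1pr5 and Ifngr2 were called lower, beside 9.99% of all genes in either direction. In TPdh-/- TM, Ccl5 was called lower than in TPdh-/- TE on that scale.

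For genes whose start was held by 4 to 12 libraries, starts most alike over the 16 libraries were looked up. Likeness was the number of libraries in which both genes had or both lacked a start peak, and ties were ranked by Pearson's r of log2 fold enrichment with 0 for no peak. Mavs, Taf13 and Ormdl1 matched Eomes in 16 of 16 libraries, and Tmem64 and Chchd7 matched Zeb2 in 16. For Runx3 these were Fgfr3 and Wiz in 16 and Osbpl5 in 15, for Prdm1 Mrps27, Ptcd2 and Shc4 in 15, and for Irf4 Tsc22d4, Uck1 and Lamtor2 in 15. These are among the nearest of all protein-coding genes over few libraries, and the points share list length and depth.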

How the data were processed

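Peak lists of 16 ATAC-seq libraries were analysed, 4 in each of 4 groups taken from the titles. Per the study's methods and the submitters' processing notes, the authors trimmed reads with Trimmomatic, aligned them to GRCm38 with BWA 0.7.17, removed multiply aligned and blacklisted reads and called peaks with MACS2 2.2.7.1 in paired mode, one library per list. Nextera adapters were clipped and the mouse genome size was set for peak calling. An offset for the transposase is not given in the sources used here. The values the authors deposited with every peak are a score, a fold enrichment (a ratio of summit pileup to local background, 1 added to both), a −log10 p-value and a −log10 q-value. The score was not used further. Lists were not normalised to each other. Since the lists give no read totals, depth was read from the background coverage, the most frequent background solved from fold and p-value; pileups came out within 0.01 of the deposited −log10 p-value for 100% of peaks in every library.

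Mitochondrial peaks were left out, and no peak lay past a chromosome end in 21 chromosomes. Genes came from GENCODE M21. Regions were merged peaks of all libraries, recurring when held by at least 4. Two-sided tests between groups were Fisher's exact test (held or not) and an exact permutation test over 70 arrangements (counts, log2 fold enrichment), fitted over 21938 genes or 9244 regions with Benjamini-Hochberg adjustment. All 8 genes are named. Listed pathway genes are named where called (a few results are not reported here), and sites where at least 4 libraries held them, with the most downstream Ifng site added after its values were seen. The promoter sequence planned for Zeb2 was not printed: no peak lay over its window free of UTR bases, and the window with peaks held UTR bases, so a start site's summit window was shown in its place. The members and lists were chosen with earlier results of these data known. Lists were also cut to equal size or by strength, scaled, given other windows and run without each library; the scaled counts and the test between cell types were also run without each library, a choice made after seeing the data. Functions were tested on simulated data. Python 3.11.15, NumPy 2.4.6, pandas 2.3.3, SciPy 1.17.1 and samtools 1.23.1 were used.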

Additional observations from a re-analysis of the deposited data

Results flagged for a closer look

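Counts of distal peaks in a group of 4 libraries were checked for a library far from the others by the share of the range taken by its gap, against Dixon's 95% limit. Of 32 sets of 4 values, 11 passed, where about 1 in 20 would by chance. The limit is made for continuous values, and with counts this small 3 tied libraries and 1 other always pass. Libraries above their group were, for Tbx21, WT TE replicate 2 with 1 distal peak and TPdh-/- TE replicate 3 with 9. For Prdm1 it was TPdh-/- TM replicate 4 with 11, and for Id2 WT TE replicate 1 with 1 and TPdh-/- TE replicate 1 with 3. For Irf4 they were WT TE replicate 2 with 2, TPdh-/- TE replicate 3 with 6 and WT TM replicate 1 with 2, and for Runx3 WT TE replicate 2 with 2. Libraries below their group were TPdh-/- TM replicate 4 with 2 for Tbx21 and WT TM replicate 3 with 1 for Prdm1. WT TE replicate 2 had the longest list of its group, at 19234 peaks, and TPdh-/- TE replicate 3 the longest of its own, at 78635. The part of list length in these values was not tested.

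The genotype effect on distal peaks per 10000 peaks differed between TM and TE for Zeb2, by -1.69 (exact permutation p = 0.00612, adjusted 0.276), and for Tbx21, by -0.69 (exact permutation p = 0.0245, adjusted 0.322), where 13.2% of all genes passed unadjusted. Without WT TM replicate 3 the Zeb2 value was -1.12 and the TM part changed sign, to 0.06. Without WT TM replicate 1 or 2 Tbx21 no longer passed (exact permutation p = 0.0571 and 0.0531). By raw number of peaks it differed by -3.5 for Zeb2 (exact permutation p = 0.145) and by -3.0 for Tbx21 (exact permutation p = 0.0673), and with single libraries left out the lowest p was 0.0388 for Zeb2 and 0.0102 for Tbx21, both without TPdh-/- TE replicate 1. Per 10000 peaks Irf4 passed as well without WT TE replicate 2 (exact permutation p = 0.0204). All these p-values assume no difference between TM and TE in either genotype, as said above. Zeb2 had 0 distal peaks in every WT TE library, in lists of 2290 to 19234 peaks, so its TE part rests on 0 values from short lists.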

How the results depend on the processing

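Peak numbers in these loci are small and depend on list length, so a gene without peaks cannot be called closed. No start was called under any alternative run. By distal peaks, no member could be called in equal-sized lists, so counts of 0 there decide nothing. The number of genes called by distal peaks in TPdh-/- TM against WT TM, 2 as reported, was 0 in equal-sized lists, at a −log10 q-value of at least 5, at a fold enrichment of at least 5 and with a flank of 20 or 100 kb, and 1 per 10000 peaks. In TPdh-/- TE against WT TE, 5 as reported, it was 0 in equal-sized lists and at the q-value limit, 3 at the fold limit, 2 per 10000 peaks, 1 with a flank of 20 kb and 3 with 100 kb. The Ifng difference there, 4.00 as reported, was -0.25 in equal-sized lists and -0.231 per 10000 peaks. With single libraries also left out, a choice made after seeing the data, it was above 0 on both scales only without WT TE replicate 1 (0.25 and 0.103). In equal-sized lists it was -0.417 without WT TE replicate 2, 3 or 4, -0.50 without TPdh-/- TE replicate 1 and -0.167 without TPdh-/- TE replicate 2, 3 or 4. Per 10000 peaks it was -0.321, -0.667 and -0.038 without WT TE replicates 2, 3 and 4, and -0.338, -0.175, -0.125 and -0.284 without TPdh-/- TE replicates 1 to 4. The Prdm1 difference in TPdh-/- TM against WT TM was -0.089 per 10000 peaks without TPdh-/- TM replicate 4. In WT TM against WT TE, 0 as reported, it was 1 with a flank of 100 kb, and 0 to 2 with single libraries left out: 1 without WT TM replicate 2 or without WT TE replicate 2 and 2 without WT TM replicate 3. In TPdh-/- TM against TPdh-/- TE, 0 as reported, it was 3 per 10000 peaks and 0 to 1 with single libraries left out, with 1 without TPdh-/- TE replicate 1. The 1 gene called by strongest distal fold in that comparison was 0 in equal-sized lists, where no member could be tested, and 0 by −log10 q-value, by pileup over background and with a flank of 20 or 100 kb. In TPdh-/- TE against WT TE that count went from 0 to 1 only without WT TE replicate 3 (range 0 to 1), when genes became testable. Recurring sites called in TPdh-/- TM against WT TM went from 0 to 1 without TPdh-/- TM replicate 1 (range 0 to 1). The cause of these changes was not tested. With a library left out, 3 against 4 can give an exact p of 0.0286 at the least, and a call is still complete separation. For overlap of 50% only the covered share of the region was used. Correlations of same-numbered libraries ran from -0.020 to 0.043. Replicates 2 and 4 correlated best with the library of the same number in all 4 comparisons, while replicates 1 and 3 mostly did not. Whether replicate number marks a batch was not tested. With replicate number as a block, a call means that all 4 pairs differ in one direction, which cannot reach a p of 0.05. This is a looser rule than separation, and distal calls under it were 3, 6, 1 and 0 in the 4 comparisons in the order above. The share of all genes called is not given for the block, other limits, other flanks or runs with a library left out. A rise or fall in the number of genes called in those runs cannot be read without that share.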
